A study of Mus musculus with 8 samples.

Results

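The scaffold proteins of the postsynaptic density were followed through 10 of their genes, namely Dlg1, Dlg2, Dlg3 and Dlg4, Shank1, Shank2 and Shank3, and Dlgap1, Dlgap2 and Dlgap3. The genes were taken by name from a table of raw read counts for 31417 genes, and each was found as 1 row. The study sequenced poly(A) RNA from the hippocampus of 12-month-old mice. It compared 4 libraries from Dclk3 knockout (KO) mice with 4 libraries from wild-type (WT) mice that served as their controls. Each library came from a single hippocampus, and no treatment is named. The sources used here do not give the strain, the litters or the part of Dclk3 that was removed. Nothing says that the libraries of a group came from separate animals, so the p-values measure the spread between these samples, which may be technical.

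The postsynaptic density is the protein sheet under the membrane of an excitatory synapse. Its scaffolds are stacked in layers. The Dlg genes encode membrane-associated guanylate kinases, which bind the tails of NMDA receptors and adhesion proteins through PDZ domains. The Dlgap proteins bind the guanylate kinase domain of the Dlg proteins on one side and the PDZ domain of the Shank proteins on the other. The Shank proteins reach further into the spine, where they bind Homer and cortactin. Loss of Shank3 or Dlgap3 in mice is known for repetitive grooming, and SHANK3 is the gene tied to Phelan-McDermid syndrome in people.

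Libraries held 29301974 to 36552757 counts, and the 10 scaffold genes together took 0.384% to 0.434% of them. Levels below are in CPM, counts per 1000000 counts of the library, scaled with the TMM factors of edgeR. Dclk3 itself measured 26.7 ± 8.51 CPM (WT) against 7.71 ± 1.42 CPM (KO; SD, n = 4 per group), with no overlap between the groups. Its fitted difference in log2 was -1.79 (SE 0.22; edgeR quasi-likelihood, adjusted p = 0.234). DESeq2 called it at an adjusted p of 9.79e-14, and edgeR called it without WT replicate 2 (adjusted p = 0.0121). The summed markers of the hippocampal excitatory neurons, which carry most of these synapses, were 7690 to 9139 CPM (WT) and 8411 to 8925 CPM (KO). Of the 5 genes in that list 4 had a fitted difference below 0, and Camk2a, which gave most of the sum, lay above 0 at 0.11. No gene of any marker list was at 0 in a library. In bulk tissue, fewer cells of a type and less RNA per cell cannot be told apart.

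None of the 10 scaffold genes passed the test for a difference between KO and WT. edgeR called 0 of 10 at an adjusted p under 0.05, against a background of 0% of 16228 genes tested. At an unadjusted p under 0.05 the count was also 0 of 10, where the background was 6.16% (3.96% higher and 2.2% lower in KO). DESeq2 called 0 of 10, against a background of 0.0138% of the 29041 genes to which it gave an adjusted p. The groups overlapped in all 10 genes, while they did not overlap in 3.8% of the genes tested. Fitted log2 fold changes ran from -0.12 for Dlgap2 to 0.10 for Shank1, with 5 genes below 0 and 5 above. Their median was -0.0013, beside 0.00029 over all genes tested. Over the 95% intervals of the 10 genes, the lowest bound was a KO level of 0.789 times WT and the highest 1.23 times WT. These bounds came from Dlgap2 and Shank3 and do not hold for each gene, since the interval of Dlg1 was 0.963 to 1.15. A p-value that misses the threshold does not show equal levels. Changes inside a gene's own interval, which is not adjusted for multiple testing, remain possible with these libraries.

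**Figure D1:**
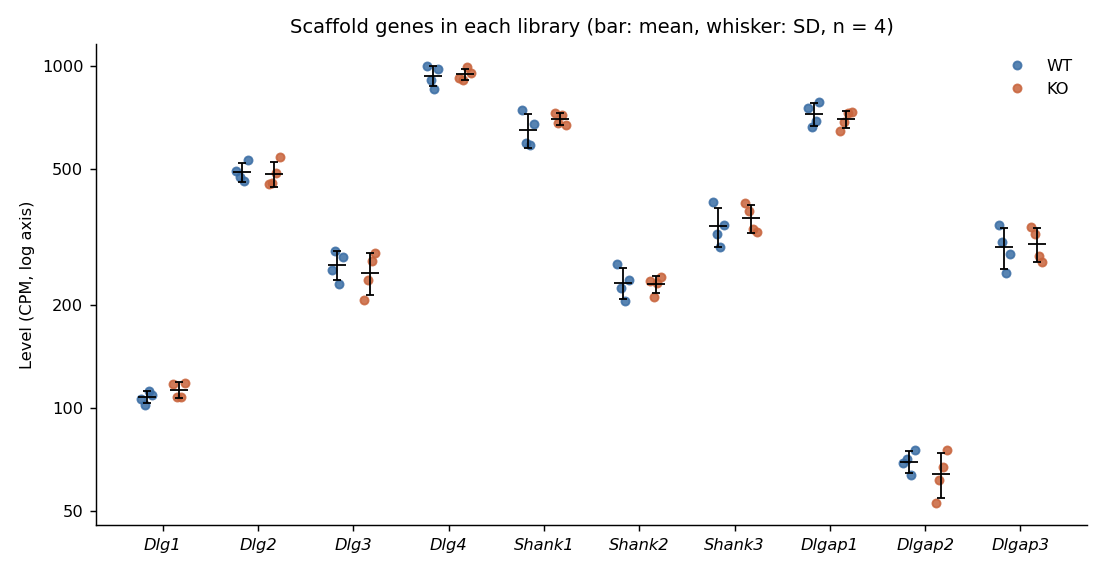
Level of each scaffold gene in CPM on a log axis, with 1 point per library, the mean and the SD for 4 WT (blue) and 4 KO (orange) libraries. Levels span from 52.8 CPM for Dlgap2 in KO replicate 1 to 996.8 CPM for Dlg4 in WT replicate 1, and WT and KO points overlap for each of the 10 genes.

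Among the Dlg genes, Dlg4 encodes PSD-95, the most abundant scaffold of excitatory synapses. Dlg4 (ENSMUSG00000020886, mm10 chromosome 11, 70016942 to 70047522, plus strand) gave 997, 907, 857 and 976 CPM across WT replicates 1 to 4, against 923, 908, 991 and 951 CPM across KO replicates 1 to 4. All KO values lay inside the WT range. For Dlg4 the fitted KO minus WT difference in log2 was 0.01 (SE 0.07; edgeR quasi-likelihood, adjusted p = 0.978), and the 95% interval of the KO to WT ratio was 0.909 to 1.12.

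Dlg1, which encodes SAP97, a scaffold that handles AMPA receptors on their way to the membrane, had the fewest counts of the Dlg genes. Dlg1 (ENSMUSG00000022770, mm10 chromosome 16, 31663443 to 31875129, plus strand) gave 106, 102, 113 and 109 CPM across WT replicates 1 to 4, against 118, 108, 108 and 118 CPM across KO replicates 1 to 4. KO replicates 1 and 4 lay above all WT libraries, and KO replicates 2 and 3 within the WT range. For Dlg1 the fitted KO minus WT difference in log2 was 0.07 (SE 0.06; edgeR quasi-likelihood, adjusted p = 0.828), and it ranged from 0.048 without KO replicate 4 to 0.10 without WT replicate 3. Dlg1 had the tightest libraries of the 10 genes, with a within-group SD of 0.067 log2 units, at percentile 10.0 of the genes tested.

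Dlg2 encodes PSD-93, which anchors NMDA receptors and potassium channels, and its gene spans 1972576 bases. Dlg2 (ENSMUSG00000052572, mm10 chromosome 7, 90476672 to 92449247, plus strand) gave 492, 471, 460.4 and 531 CPM across WT replicates 1 to 4, against 453, 455, 486 and 540.3 CPM across KO replicates 1 to 4. KO replicates 1 and 2 lay just below the WT range and KO replicate 4 just above it. For Dlg2 the fitted KO minus WT difference in log2 was -0.02 (SE 0.08; edgeR quasi-likelihood, adjusted p = 0.977).

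Dlg3 encodes SAP102, the Dlg protein best known for carrying NMDA receptors in young neurons. Dlg3 (ENSMUSG00000000881, mm10 chromosome X, 100767722 to 100818410, plus strand) gave 253, 288, 229.8 and 276 CPM across WT replicates 1 to 4, against 207, 236, 268 and 284 CPM across KO replicates 1 to 4. KO replicate 1 was the lowest of the 8 libraries, and the other KO libraries lay within the WT range. For Dlg3 the fitted KO minus WT difference in log2 was -0.07 (SE 0.11; edgeR quasi-likelihood, adjusted p = 0.907), and without KO replicate 1 it was 0.010.

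Of the Shank genes, Shank1, a scaffold of mature spine heads, had the highest fitted difference of all 10 genes, and it did not pass the test. Shank1 (ENSMUSG00000038738, mm10 chromosome 7, 44310253 to 44360572, plus strand) gave 742, 595, 586 and 677 CPM across WT replicates 1 to 4, against 728, 679, 716 and 672 CPM across KO replicates 1 to 4. The KO libraries were tightly grouped, with an SD of 27.6 CPM, inside a WT range with an SD of 73.8 CPM. For Shank1 the fitted KO minus WT difference in log2 was 0.10 (SE 0.08; edgeR quasi-likelihood, adjusted p = 0.830). Leaving out WT replicate 1 gave 0.17 (edgeR adjusted p = 0.739), while leaving out WT replicate 2 or 3 gave 0.067 and 0.063.

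Shank2, whose protein links to metabotropic glutamate receptors through Homer, had the fewest counts of the Shank genes. Shank2 (ENSMUSG00000037541, mm10 chromosome 7, 144001928 to 144424494, plus strand) gave 263, 224, 205 and 237 CPM across WT replicates 1 to 4, against 235, 211, 232 and 242 CPM across KO replicates 1 to 4. All KO values lay inside the WT range. For Shank2 the fitted KO minus WT difference in log2 was -0.02 (SE 0.08; edgeR quasi-likelihood, adjusted p = 0.978).

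Shank3 binds the Dlgap proteins through its PDZ domain, as the other Shank proteins do. Shank3 (ENSMUSG00000022623, mm10 chromosome 15, 89499623 to 89560261, plus strand) gave 399, 322, 295 and 342 CPM across WT replicates 1 to 4, against 396, 377, 334 and 327 CPM across KO replicates 1 to 4. WT replicate 1 and KO replicates 1 and 2 were high and WT replicate 3 was low, and all KO values lay inside the WT range. For Shank3 the fitted KO minus WT difference in log2 was 0.08 (SE 0.10; edgeR quasi-likelihood, adjusted p = 0.894). Without WT replicate 1 it was 0.16, without WT replicate 3 it was 0.024 and without KO replicate 1 it was 0.033. Without KO replicate 4 it was 0.12.

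Among the Dlgap genes, which encode the GKAP or SAPAP linkers between the Dlg and Shank layers, Dlgap1 had the most counts. Dlgap1 (ENSMUSG00000003279, mm10 chromosome 17, 69969073 to 70821413, plus strand) gave 752, 663, 689 and 782 CPM across WT replicates 1 to 4, against 644, 686, 729.5 and 730.5 CPM across KO replicates 1 to 4. KO replicate 1 was the lowest library and the other KO libraries lay within the WT range. For Dlgap1 the fitted KO minus WT difference in log2 was -0.05 (SE 0.07; edgeR quasi-likelihood, adjusted p = 0.912). Leaving out KO replicate 1, WT replicate 4 or WT replicate 1 brought it to -0.0080, -0.0092 and -0.029, and leaving out WT replicate 2 to -0.084.

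Dlgap2 was the scaffold gene with the fewest counts, from 1866 to 2479 a library. Dlgap2 (ENSMUSG00000047495, mm10 chromosome 8, 14095865 to 14847680, plus strand) gave 69.0, 71.1, 63.6 and 75.6 CPM across WT replicates 1 to 4, against 52.8, 61.7, 67.5 and 75.7 CPM across KO replicates 1 to 4. KO replicates 1 and 2 lay below the WT range and KO replicate 4 was level with the highest WT library. For Dlgap2 the fitted KO minus WT difference in log2 was -0.12 (SE 0.10; edgeR quasi-likelihood, adjusted p = 0.840). Leaving out KO replicate 1 gave -0.027, and leaving out KO replicate 4 gave -0.20 (edgeR adjusted p = 0.448). The fit without KO replicate 4 was the only 1 of 180 alternative fits of the scaffold genes with an unadjusted p under 0.05.

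Dlgap3, known for its high level in the striatum, was also well measured in these hippocampal libraries. Dlgap3 (ENSMUSG00000042388, mm10 chromosome 4, 127169204 to 127237022, plus strand) gave 343, 305, 248 and 282 CPM across WT replicates 1 to 4, against 339, 322, 279 and 267 CPM across KO replicates 1 to 4. WT replicate 1 and KO replicate 1 were the highest of their groups, as for Shank3, and all KO values lay inside the WT range. For Dlgap3 the fitted KO minus WT difference in log2 was 0.03 (SE 0.11; edgeR quasi-likelihood, adjusted p = 0.964). Summed markers of the striatum, a region a dissection could include, were 65.8 to 94.6 CPM (WT) and 69.1 to 92.0 CPM (KO), so that the KO range lay within the WT range, and 4 of 5 of these markers had a fitted difference below 0.

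**Figure D2:**
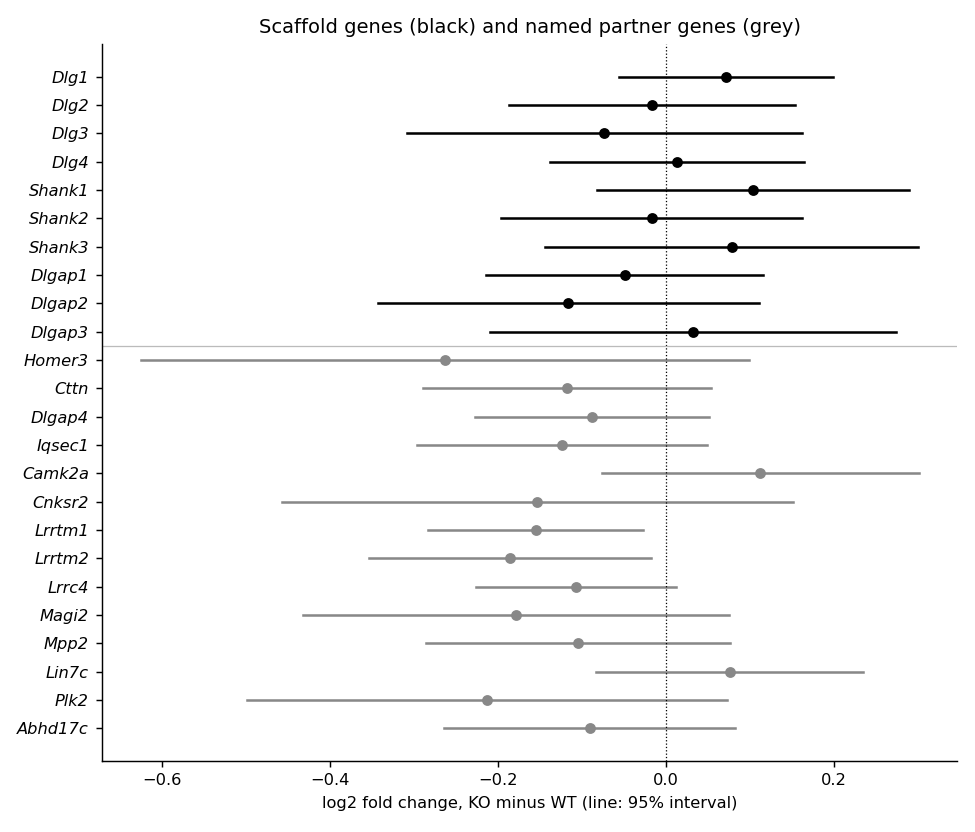
Fitted log2 fold change of KO against WT for the 10 scaffold genes (black) and the named partner genes (grey), with 95% intervals. Each of the 10 scaffold intervals includes 0, and the intervals of Lrrtm1 and Lrrtm2 lie below 0 before adjustment for multiple testing.

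Levels can be compared between genes only per length, so CPM was divided by the kilobases of annotated exon. On this scale Dlg4 led in WT with 70.5 ± 4.84 CPM per kilobase (SD, n = 4), followed by Dlgap3 with 65.2 ± 8.83 and Shank1 with 61.8 ± 7.02. Neighbours among these overlapped in WT and in KO. Dlg3 with 44.8 ± 4.41, Dlgap1 with 40.3 ± 3.08 and Shank3, with 39.0 ± 3.62 CPM per kilobase in KO, formed the next overlapping run, and Shank1 lay above Dlg3 without overlap. Dlg2 followed with 30.0 ± 1.92, which overlapped Shank3 in WT and not in KO. Shank2 had 21.6 ± 2.24 CPM per kilobase, apart from its neighbours on both sides. Dlgap2 with 11.4 ± 0.811 and Dlg1 with 10.0 ± 0.402 CPM per kilobase came last and overlapped. In KO, Dlgap1 and Shank3 both had 39.0 CPM per kilobase (SD 2.31 and 3.62), and Dlgap2 and Dlg1 both had 10.5. The order depended on the length used: with the longest annotated transcript, 2 of 10 genes kept their place, Dlg4 at rank 1 and Shank2 at rank 8, and Dlgap1 moved from rank 5 to rank 2.

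**Figure D3:**
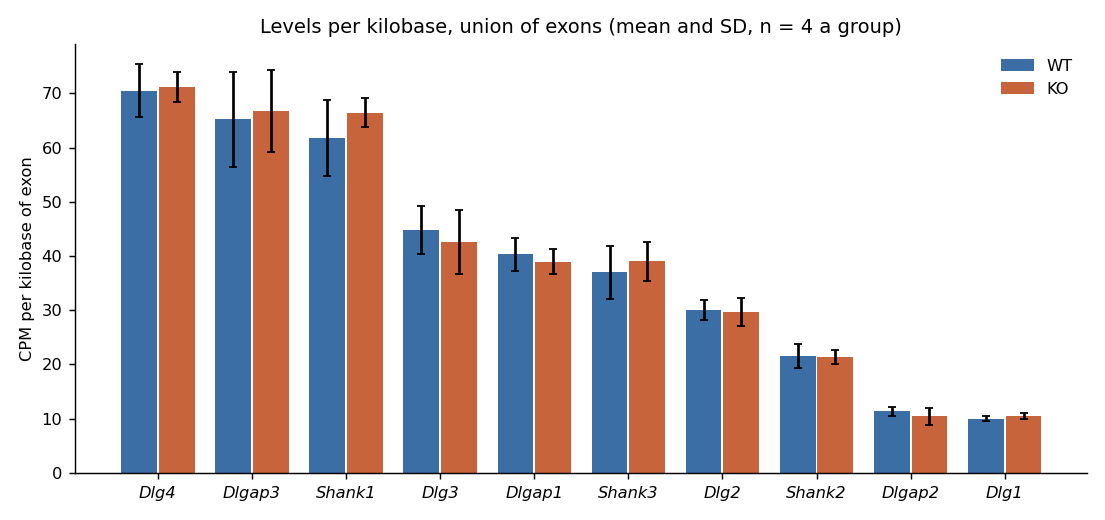
CPM per kilobase of annotated exon for the 10 scaffold genes in WT (blue) and KO (orange), as mean and SD over 4 libraries a group. In WT the values fall from 70.5 for Dlg4 to 10.0 for Dlg1, and WT and KO error bars overlap for each gene.

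The make-up of each family was described by the share of its counts. Dlg4 gave 52.1% ± 1.23 (WT) and 52.8% ± 1.78 (KO) of the Dlg counts. Dlg2 gave 27.3% ± 0.737 (WT) and 27.0% ± 1.04 (KO), Dlg3 14.6% ± 1.19 (WT) and 13.9% ± 1.24 (KO), and Dlg1 6.02% ± 0.504 (WT) and 6.34% ± 0.455 (KO). Dlg4 thus made up the larger part of the Dlg counts in both groups. Per kilobase of exon its share was 45.4% (WT) and 46.3% (KO). Shank1 gave 53.2% ± 0.858 (WT) and 54.3% ± 1.07 (KO) of the Shank counts. Shank3 gave 27.8% ± 0.647 (WT) and 27.8% ± 1.89 (KO). Shank2 gave 19.0% ± 0.413 (WT) and 17.9% ± 1.23 (KO). KO replicates 1, 2 and 3, at 17.3%, 16.6% and 18.1%, lay below all WT libraries. KO replicate 4, at 19.5%, lay within the WT range. In these shares the KO libraries were more spread than the WT libraries for Shank2 and Shank3. In level they were less spread, with SDs of 24.2 CPM (WT) and 13.4 CPM (KO) for Shank2. For Shank3 the SDs were 44.2 CPM (WT) and 33.3 CPM (KO). Dlgap1 gave 66.5% ± 2.64 (WT) and 65.6% ± 2.87 (KO) of the Dlgap counts. Dlgap3 gave 27.1% ± 2.68 (WT) and 28.4% ± 3.66 (KO), and Dlgap2 gave 6.44% in WT and 6.05% in KO. The groups overlapped in every one of these shares. Per kilobase of exon the order within a family changed, since Dlg3 then lay above Dlg2 and Dlgap3 above Dlgap1, and the Shank order did not.

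Counting error was small beside the spread between libraries. At the lowest count of Dlgap2, 1866, counting alone gives a relative SD of 2.31%, while its biological coefficient of variation in the fit was 10.7%. For Dlg4 these were 0.612% and 8.16%. PCR reads carry no molecular identifiers here, so this covers counting error only. Within-group SDs of the 10 genes lay between percentiles 10.0 and 58.6 of all genes tested, and their levels between percentiles 78.8 and 99.4.

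The scaffold genes did not move as 1 block across the libraries. For each gene, log2 CPM was centred on its mean over the 8 libraries, and genes were compared by the root mean square difference of these patterns. Such a difference depends on the size of the deviations as well as on their shape. Over the 45 pairs this difference ran from 0.057 to 0.27, with a median of 0.13. The closest pairs were Dlg2 with Dlgap1 and Dlg3 with Dlgap2 (both 0.057), Dlg4 with Shank2 (0.060), Dlg4 with Dlgap1 (0.064) and Shank3 with Dlgap3 (0.064). The most distant were Dlgap2 with Dlgap3 (0.27) and Shank3 with Dlgap2 (0.26). Members of 1 family could thus lie at opposite ends, as Dlgap2 and Dlgap3 did.

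The contrast was sharpest in KO replicate 1. There Shank3 lay 0.19 and Dlgap3 0.19 log2 units above their means, while Dlg3 lay at -0.30 and Dlgap2 at -0.34. In KO replicate 4 the signs were turned, with Shank3 at -0.087, Dlgap3 at -0.15, Dlg3 at 0.16 and Dlgap2 at 0.18. WT replicate 3 was low for these 4 genes, from -0.26 for Dlgap3 to -0.069 for Dlgap2. These opposite deviations fell on libraries of the same genotype.

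**Figure D4:**
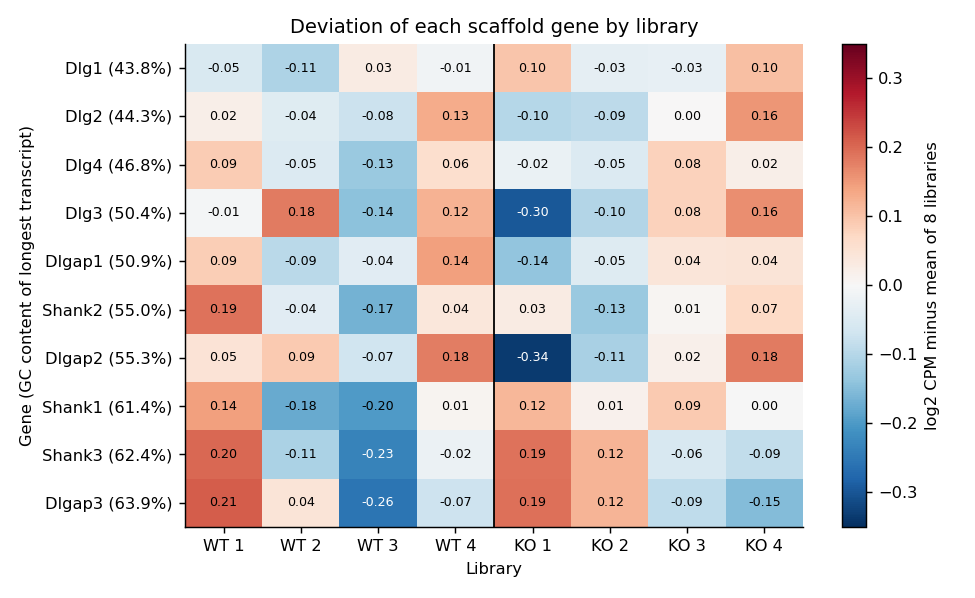
Deviation of each scaffold gene (rows, ordered by the GC content of the longest transcript) from its mean log2 CPM over 8 libraries (columns, WT left and KO right of the line). KO replicate 1 holds the lowest values of Dlg3 (-0.30) and Dlgap2 (-0.34) together with high values of Shank3 and Dlgap3 (0.19 each).

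The GC content of the transcripts was set beside this pattern. Shank1, Shank3 and Dlgap3 had the highest GC content of the 10 longest transcripts (61.4%, 62.4% and 63.9%), all within the highest 10% of tested genes, which began at 57.9%. Dlg1, Dlg2 and Dlg4 had 43.8%, 44.3% and 46.8%, Dlg3 and Dlgap1 50.4% and 50.9%, and Shank2 and Dlgap2 55.0% and 55.3%. Libraries differed in GC tilt, the median log2 deviation of the 10% of genes with the highest GC minus that of the 10% with the lowest. The tilt was 0.16 in KO replicate 1 and 0.10 in WT replicate 1, and it was -0.19 in KO replicate 4 and -0.055 in WT replicate 2. In the other 4 libraries it lay between -0.033 and 0.032. It was highest in KO replicate 1 and WT replicate 1, where Shank3 and Dlgap3 were highest. It was lowest in KO replicate 4, where Shank3 lay at -0.087 and Dlgap3 at -0.15. In KO replicate 2, with a tilt of 0.032, both lay at 0.12. In WT replicate 2 Shank3 lay at -0.11 and Dlgap3 at 0.044. In WT replicate 3, where both were lowest, the tilt was only -0.019. Whether the tilt gave rise to these values was not tested.

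Removing the GC trend of each library before the fit, an alternative chosen after seeing the data, narrowed the SE of Shank3 from 0.10 to 0.067, that of Dlgap3 from 0.11 to 0.074 and that of Shank1 from 0.084 to 0.071. The SE of Dlgap2 went from 0.10 to 0.11. Log2 fold changes after removal were 0.084 for Shank3, 0.034 for Dlgap3, 0.11 for Shank1 and -0.11 for Dlgap2. None of the 10 genes was called after removal, with edgeR adjusted p-values of 0.762 or more. With replicate number as a block and the GC trend kept, the SEs were 0.074 for Shank3, 0.068 for Dlgap3, 0.078 for Shank1 and 0.084 for Dlgap2. What narrowed them was not tested.

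**Figure D5:**
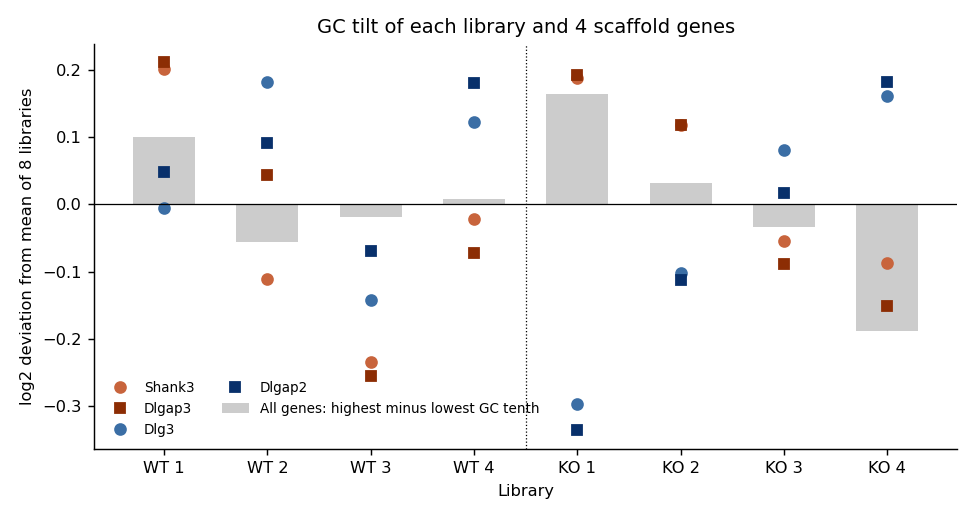
Bars give the GC tilt of each library over all tested genes (median log2 deviation of the 10% of genes with the highest GC minus the 10% with the lowest), and points the log2 deviation of Shank3, Dlgap3, Dlg3 and Dlgap2 from their means over 8 libraries. Shank3 and Dlgap3 lie on the side opposite to Dlg3 and Dlgap2 in KO replicates 1 to 4, and these 4 genes lie below 0 in WT replicate 3.

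Promoters are shown for Shank3 and Dlgap3, which moved closely together over the libraries, and for Dlg3, which moved apart from both. RefSeq gave promoter windows (250 bases before to 50 after a start, build GRCm38.p6) for 7 of the 10 genes, and for Shank1, Shank2 and Dlgap2 none was found. The Shank3 window, chr15:89499358-89499657 on the plus strand, has a start site 15 bases upstream of the annotated gene start. The Dlgap3 window is chr4:127172630-127172929 and the Dlg3 window printed here chrX:100777021-100777320, both on the plus strand and with start sites 3676 and 9549 bases inside the annotated genes. Of the 300 bases, 35, 50 and 36 lie in annotated exons of Shank3, Dlgap3 and Dlg3. Capitals mark the GC box GGGCGG on either strand.
Shank3: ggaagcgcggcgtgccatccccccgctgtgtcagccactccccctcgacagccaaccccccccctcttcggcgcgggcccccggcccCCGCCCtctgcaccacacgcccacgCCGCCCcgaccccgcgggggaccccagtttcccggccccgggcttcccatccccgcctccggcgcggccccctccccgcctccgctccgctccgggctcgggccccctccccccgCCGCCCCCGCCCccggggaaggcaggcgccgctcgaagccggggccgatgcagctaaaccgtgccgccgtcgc
Dlgap3: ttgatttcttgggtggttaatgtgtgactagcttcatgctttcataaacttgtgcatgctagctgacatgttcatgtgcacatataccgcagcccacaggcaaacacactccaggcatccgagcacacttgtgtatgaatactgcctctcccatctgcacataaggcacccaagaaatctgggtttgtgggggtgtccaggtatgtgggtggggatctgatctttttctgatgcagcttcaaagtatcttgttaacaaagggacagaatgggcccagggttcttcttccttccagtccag
Dlg3: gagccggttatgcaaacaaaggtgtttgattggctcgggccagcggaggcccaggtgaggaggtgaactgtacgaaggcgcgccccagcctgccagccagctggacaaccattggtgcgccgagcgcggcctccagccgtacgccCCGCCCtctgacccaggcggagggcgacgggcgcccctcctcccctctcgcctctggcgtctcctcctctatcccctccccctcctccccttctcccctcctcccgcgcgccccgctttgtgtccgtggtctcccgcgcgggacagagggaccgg
The Shank3 window had 81.0% GC, 40 CpG and 4 GC box matches. The Dlgap3 window had 47.7% GC, 2 CpG and no GC box match. Its start site lies inside the annotated gene and that of Shank3 just upstream, so these windows are not like for like. Whether either start gives the RNA counted here was not tested. The Dlg3 window printed here had 70.3% GC, 28 CpG and 1 match. A further Dlg3 window, chrX:100774245-100774544, had 56.7% GC, 9 CpG and no GC box match. GGGCGG was found in 35.7% of all 32851 RefSeq windows of this length and in 5 of the 16 windows of the scaffold genes. Neither TATAAA (13.6% of all windows) nor TGACGTCA (1.79%) was found in the 3 windows printed here, nor was CACGTG (7.15%), all searched on both strands. A match is a description of letters and not a measured site.

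Leaving out Gm and Rik names, the tested genes whose library pattern came nearest to the mean pattern of the 10 scaffold genes were Dtnbp1, Ptprz1, Pag1, Mtcl1 and Eif4ebp2, with root mean square differences of 0.020 to 0.023 log2 units over the 8 libraries. Dtnbp1 encodes dysbindin and Ptprz1 a receptor tyrosine phosphatase of glia. Each scaffold gene's own values are part of that mean, which favours it in such a ranking. Dlg4 stood at 0.027, rank 6 of 16228, and was the scaffold gene nearest to that mean. Dlgap3 was the farthest, at 0.15 and rank 7586. A gene with small deviations can come near that mean without sharing its shape, so these ranks do not measure shape alone.

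Proteins that meet the scaffolds in the postsynaptic density were covered by 5 lists of 67 genes, all of which were tested. edgeR called 0 of 67, and 2 of 67 had an unadjusted p under 0.05, both lower in KO, where the background for lower genes was 2.2%. Log2 fold changes below 0 were found in 46 of 67, with a median of -0.055, where 49.9% of all genes tested lay below 0. That count was 31 without KO replicate 1 and 52 without WT replicate 2. The summed GABA neuron markers, beside these lists, were 893 to 939 CPM (WT) and 799.8 to 831 CPM (KO), with 4 of 6 genes below 0, and those of dentate granule cells 482 to 545 and 561 to 606 CPM, with 0 of 6 below 0. CA1 markers summed to 1186 to 1390 CPM (WT) and 1055 to 1310 CPM (KO), with 5 of 5 below 0. Those of CA3 and CA2 summed to 555 to 625 and 456 to 615 CPM, with 5 of 6 below 0, and those of oligodendrocytes to 3247 to 4662 and 3998 to 4501 CPM, with 0 of 5 below 0. Their part in the partner values was not tested.

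The membrane proteins that PDZ scaffolds hold, such as glutamate receptor subunits, neuroligins and leucine-rich adhesion proteins, had 15 of 20 below 0 with a median of -0.072. That count fell to 8 without KO replicate 1. Lrrtm1 and Lrrtm2, postsynaptic adhesion proteins that bind neurexins, had the lowest p. Lrrtm1 had 99.2 ± 4.65 CPM (WT) against 89.1 ± 4.45 CPM (KO), a log2 difference of -0.15 with an edgeR adjusted p of 0.796. Lrrtm2 had 97.0 ± 7.48 CPM (WT) against 85.3 ± 6.92 CPM (KO), a log2 difference of -0.19 with an edgeR adjusted p of 0.796. Lrrc4, which encodes the netrin-G ligand NGL-2, had 133 ± 6.93 CPM (WT) against 123 ± 1.73 CPM (KO). The groups did not overlap for Lrrtm2 and Lrrc4, against a background of 1.92% of genes with all KO libraries below all WT libraries, and these genes were named for a low p.

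The Homer and Shank layer, with the Homer proteins, cortactin and other spine scaffolds, had 10 of 11 below 0 and a median of -0.085. None had an unadjusted p under 0.05, and the count was 7 without KO replicate 1 and 11 without WT replicate 3 or KO replicate 3. Homer3 had 63.8 ± 15.7 CPM (WT) against 53.2 ± 6.07 CPM (KO). Cttn, which encodes cortactin, had 154 ± 6.43 CPM (WT) against 142 ± 14.7 CPM (KO), and Dlgap4, a further Dlgap gene, 244 ± 16.4 CPM (WT) against 229 ± 7.28 CPM (KO). The edgeR adjusted p of these genes was 0.797 to 0.821, and their groups overlapped.

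Signalling proteins bound to PSD-95 had 7 of 16 below 0, with a median of 0.0056. That count was 4 without KO replicate 1 and 11 without WT replicate 2. Camk2a, the alpha subunit of the calcium/calmodulin-dependent kinase, had 5618 ± 642 CPM (WT) against 6074 ± 220.5 CPM (KO). The Arf exchange factor gene Iqsec1 had 310.2 ± 28.4 CPM (WT) against 285 ± 17.5 CPM (KO), and Cnksr2, a scaffold of Ras signalling, 460.0 ± 50.4 CPM (WT) against 414 ± 79.7 CPM (KO). Other PDZ scaffolds had 8 of 12 below 0 (median -0.024). Among them Magi2 had 127 ± 18.6 CPM (WT) against 113 ± 13.6 CPM (KO) and Mpp2 200.2 ± 20.9 CPM (WT) against 186 ± 11.6 CPM (KO). Lin7c, a small PDZ protein, had a fitted log2 difference of 0.076, and leaving out KO replicate 4 gave 0.019 where leaving out KO replicate 1 gave 0.13. Enzymes of scaffold palmitoylation and turnover had 6 of 8 below 0 (median -0.076). Among these, Plk2, a kinase that acts on spine scaffolds, had 229 ± 36.1 CPM (WT) against 198 ± 28.4 CPM (KO). The depalmitoylating enzyme gene Abhd17c had 49.8 ± 4.53 CPM (WT) against 46.8 ± 3.39 CPM (KO). In these 3 lists no gene had an unadjusted p under 0.05.

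Some exons of the scaffold genes are shared with other annotated genes, and whether counting used strand is something the sources used here do not give. Shank1 shares 339 exon bases with 1700008O03Rik on the opposite strand, which had at most 80 counts in a library, and Shank3 shares 271 with Gm15609, which had at most 15. Dlg2 shares 75 with Gm45159 (at most 91 counts) and 150 with Gm45131 (at most 1) on its own strand. Dlgap1 shares 92 exon bases with AC079441.1 on the opposite strand. The scaffold genes concerned had 9199 counts or more in every library.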

How the data were processed

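Poly(A) RNA of 8 hippocampal libraries (4 KO, 4 WT) was made into libraries from 1000 ng of total RNA with a strand-specific kit and 12 PCR cycles, per the labels' protocols. The authors deposited raw counts per Ensembl gene, 1 column per library, without normalization. The submitters' processing notes name bcl2fastq 2.17.1.14 and the build mm10. Aligner, counter and strand setting: not given in the sources used here. Symbols were found for 31292 of 31417 IDs. Positions, exon lengths and GC content came from GENCODE M21 on the same build.

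KO was compared with WT in edgeR 4.0.16 (R 4.3.3) with TMM scaling, filterByExpr, robust quasi-likelihood F tests, with p-values adjusted by Benjamini-Hochberg over 16228 genes, called under 0.05. The SE is the log2 fold change over the square root of F, and 95% intervals use the fitted degrees of freedom. Log2 CPM used a prior count of 2. Alternatives were DESeq2 1.42.0, limma-voom (limma 3.58.1), other scalings and filters, dispersion without robust estimation, a replicate block, a threshold of 0.1, other gene lengths, and each library left out. The tests were first run on simulated counts with known changes.

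Named were the scaffold genes, Dclk3, the 3 partners with the lowest p in each of 5 lists and the 5 genes nearest in pattern, except 1 partner that is not reported here. Scaffold genes and lists were chosen with earlier results of these data known.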

Additional observations from a re-analysis of the deposited data

Results flagged for a closer look

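In 106 groups of 4 libraries, 5 held a library that lay apart from the other three by Dixon's test, where chance flags about 1 in 20. WT replicate 3 gave Dlg1 6.78% of the Dlg counts, with the next WT library at 5.79%. WT replicate 1 gave Dlg4 53.9%, with the next at 51.6%. WT replicate 2 stood apart for Lrrc4 (143 CPM, next 130.1) and for Dclk3 (39.3 CPM, next 23.5). The summed excitatory neuron markers were 8925 CPM in KO replicate 3, with the next at 8467.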

How the results depend on the processing

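Over 18 alternatives for each of the 10 scaffold genes, 0 gave a call and the lowest adjusted p was 0.448. The sign of the log2 fold change held in all of them for Dlg1, Shank1, Shank3, Dlgap1 and Dlgap2. Of the 180 fits of all 10 genes it turned in 15, all of them fits of Dlg2, Dlg3, Dlg4, Shank2 or Dlgap3. With upper quartile factors it turned for Dlg2 (0.00073) and Shank2 (0.0023). With choroid plexus markers as a covariate, an alternative added after seeing the data, it turned for Dlg2 (0.0056) and Shank2 (0.011). With limma-voom it turned for Dlg4 (-0.0016). With a library left out it turned for Dlg2 (-0.075 to 0.025), Dlg3 (-0.14 to 0.010), Dlg4 (-0.020 to 0.045), Shank2 (-0.065 to 0.048) and Dlgap3 (-0.035 to 0.11). The choroid plexus marker sum itself was 64.7 to 2125 CPM in WT and 173 to 3340 CPM in KO.

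Scaffold genes below 0 numbered 5, but 3 with upper quartile factors, 3 with the choroid plexus covariate and 3 to 7 with a library left out (3 without KO replicate 2). All genes called numbered 0, but 4 by DESeq2 and 0 to 1 with a library left out. Genes with an unadjusted p under 0.05 numbered 1000, but 1505 by limma-voom, 556 without WT replicate 4, 640 without KO replicate 2 and 1777 without KO replicate 4. Dclk3 was called by DESeq2 (-1.80) and ranged from -1.88 to -1.54 with a library left out. The replicate block called 1 gene, Dclk3 (-1.76), and no scaffold gene. Over all genes tested, deviations of same-numbered libraries correlated at -0.22 to 0.14, and those of differently numbered libraries at -0.30 to 0.19. The choroid plexus sum, 1 of 12 marker lists, was high and low in the same numbers. It was 178, 2125, 857 and 64.7 CPM across WT replicates 1 to 4, against 173, 3340, 1053 and 223 CPM across KO replicates 1 to 4. These values do not settle whether the numbers pair the samples. With the longest transcript as length, 2 of 10 places in the order of levels were kept, and per kilobase 1 of 3 families kept its order by counts. The cause of these shifts was not tested.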
